A study of Homo sapiens with 5 samples.

Results

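Promoter intervals of vesicle DNA were the peaks that the authors' annotation placed within 1 kb of a transcript start in 2 lists of DNA from extracellular vesicles (evDNA) of A549 cells. They were chosen by that annotation class alone, without use of any peak strength, and entries of a list with the same chromosome, start and end were merged to 1 interval. There were 4137 of them among 44395 evDNA intervals and 63391 intervals of all 4 lists in the series. The control list held 2691 promoter intervals of 28993, or 9.28% (95% exact Clopper-Pearson interval 8.95% to 9.62%), and the EBSS list held 1446 of 15402, or 9.39% (8.93% to 9.86%).

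A549 is an established epithelial line from a human lung adenocarcinoma. Cells that gave vesicles grew in DMEM with glutamine, penicillin and streptomycin but without fetal bovine serum; the control cells had no treatment, and the others were kept 3 days in EBSS, a balanced salt solution without amino acids, before their vesicles were collected. The other 2 lists came from chromatin of untreated, serum-grown A549 cells immunoprecipitated with an antibody against the transcription factor FOXM1 or against LC3, and the series' title links FOXM1 to the choice of chromatin DNA for vesicles. Each group was 1 library, so no difference between lists could be tested against replicate error, a difference between the lists cannot be told apart from a difference between the libraries, and all intervals given here cover counting error only. Cell type markers cannot be read from DNA peaks, so the epithelial label was not checked.

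A peak in evDNA, which involves no antibody, is a place where more DNA fragments were found than in the peak caller's local background. Whether that background came from the same library or from a control is not stated. The authors' fold is the number of fragments at the summit over the local background, each plus 1 fragment, and the folds and q values printed here are the authors'. The lists end at a p of 0.005 with no limit on q. The typical evDNA promoter interval was weak: the median summit held 9 fragments in both lists over a median background of 2.33, and the median interval was 316 bases wide in control and 302 in EBSS. Relative depth estimated from the lowest backgrounds was 1 for control, 1.005 for EBSS, 0.762 for LC3 and 0.479 for FOXM1. By this estimate, which holds only if each background came from its own library, the shorter EBSS list did not have a lower depth. Promoter intervals were 28.5% of all LC3 intervals and 6.1% of all FOXM1 intervals.

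Extracellular vesicles are membrane-bound particles that cells release, and DNA has been found in and on them. A promoter is the stretch of DNA at the start of a gene where transcription factors and RNA polymerase assemble. Many promoters of widely expressed genes lie in CpG islands, stretches rich in G, C and CG pairs, while many promoters of tissue-specific genes do not, and chromatin at active promoters is more open than elsewhere. Human gene families made by duplication, such as the olfactory receptors or the cancer-testis antigens, have near-identical copies, among which short reads can often not be placed.

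Printed here are 6 promoter sequences. Those of PGK1, overlapped by an interval in EBSS, and of PIK3R1 and GHSR, overlapped in both lists, are examples of what was covered. That of the copied gene GAGE2A had its intervals downstream of the start. The last are a near-identical pair: the stretch of TAF11L9 was overlapped in both lists and that of TAF11L3 in neither. TAF11L3 was still named at a promoter interval outside this stretch in both lists. All 6 are the 250 bases before a RefSeq start on GRCh38.p14, the assembly of hg38, 5′ to 3′ on the strand of the gene. The first 4 are PGK1 (phosphoglycerate kinase of glycolysis; chrX:78103998-78104247, plus strand), PIK3R1 (a regulatory subunit of phosphoinositide 3-kinase; chr5:68288269-68288518, plus strand), GHSR (the ghrelin receptor; chr3:172448457-172448706, minus strand) and GAGE2A (a cancer-testis antigen; chrX:49589246-49589495, plus strand). Capitals mark CG pairs in these 4, of which PGK1 had 32, PIK3R1 18, GHSR 10 and GAGE2A 8. In the TAF11L pair, named for their likeness to TAF11, a subunit of the general transcription factor TFIID, capitals mark the base that differs. TAF11L9 lies at chr5:17594395-17594644 on the minus strand and TAF11L3 at chr5:17518117-17518366 on the plus strand.
PGK1: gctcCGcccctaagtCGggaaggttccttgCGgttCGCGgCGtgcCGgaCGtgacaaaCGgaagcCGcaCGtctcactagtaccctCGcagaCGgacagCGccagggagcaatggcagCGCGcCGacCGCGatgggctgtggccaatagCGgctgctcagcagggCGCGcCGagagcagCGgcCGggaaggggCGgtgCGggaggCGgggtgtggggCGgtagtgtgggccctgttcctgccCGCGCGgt
PIK3R1: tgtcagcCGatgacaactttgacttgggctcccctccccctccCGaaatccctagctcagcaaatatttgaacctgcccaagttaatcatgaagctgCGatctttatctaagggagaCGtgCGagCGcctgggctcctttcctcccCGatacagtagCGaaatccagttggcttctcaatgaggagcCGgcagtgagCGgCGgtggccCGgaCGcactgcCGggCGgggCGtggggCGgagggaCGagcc
GHSR: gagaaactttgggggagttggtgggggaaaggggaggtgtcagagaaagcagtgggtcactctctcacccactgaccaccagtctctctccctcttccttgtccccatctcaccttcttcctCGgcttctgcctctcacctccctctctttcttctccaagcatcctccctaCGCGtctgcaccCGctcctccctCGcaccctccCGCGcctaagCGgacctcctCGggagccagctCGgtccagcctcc
GAGE2A: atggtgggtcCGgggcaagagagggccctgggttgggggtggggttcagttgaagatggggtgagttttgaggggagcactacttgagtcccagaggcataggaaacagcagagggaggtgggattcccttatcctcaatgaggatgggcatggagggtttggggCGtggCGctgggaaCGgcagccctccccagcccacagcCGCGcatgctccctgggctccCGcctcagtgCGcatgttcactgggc
TAF11L9: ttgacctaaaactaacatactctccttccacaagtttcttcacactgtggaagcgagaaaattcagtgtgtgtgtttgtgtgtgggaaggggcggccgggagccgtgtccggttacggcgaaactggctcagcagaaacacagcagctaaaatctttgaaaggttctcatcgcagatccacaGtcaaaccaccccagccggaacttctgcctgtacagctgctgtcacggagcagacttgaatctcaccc
TAF11L3: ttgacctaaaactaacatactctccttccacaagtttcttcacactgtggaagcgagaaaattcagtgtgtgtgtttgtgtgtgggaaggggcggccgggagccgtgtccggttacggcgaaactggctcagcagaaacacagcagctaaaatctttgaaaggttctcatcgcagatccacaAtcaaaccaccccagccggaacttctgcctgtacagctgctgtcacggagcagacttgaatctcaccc

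Counted from 1 at the 5′ end, TAF11L9 and TAF11L3 differed by G183A alone over 250 bases, and GAGE2A differed from its neighbour GAGE13 at 0 of 250 bases. Of the 13 TAF11L promoter windows in RefSeq, 7 were identical to each other. A fragment from any of these copies could be assigned to another, so intervals at copied genes are given below as uncertain in place. Of 3 motifs searched on both strands, TAAACA (the core of forkhead sites), TTTGAA (the CHR element of cell cycle genes) and TATAAA (the TATA box), PGK1, GHSR and GAGE2A held none in the printed stretch, and PIK3R1, TAF11L9 and TAF11L3 held TTTGAA.

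About as many evDNA promoter intervals lay at protein-coding genes as at all other kinds of gene name together. In control, 1336 of 2691 (49.6%) carried the name of a protein-coding gene, 450 (16.7%) a pseudogene, 156 (5.80%) a long noncoding RNA and 32 (1.19%) a small or structural RNA. A further 702 (26.1%) had names that are not in the RefSeq table, mainly of clones and unnamed transcripts, so their class is unknown. The split in EBSS lay within 2 percentage points of the one in control for each class. Single-copy protein-coding genes, meaning those outside the listed copy families, made up 46.7% of promoter intervals in control and 47.6% in EBSS. A gene so named can still have copies that the lists miss. Members of copied gene families, of any class, made up 6.99% (6.05% to 8.02%) in control and 8.09% in EBSS, against 2.83% in LC3 and 8.78% in FOXM1. The share depends on what counts as a family: by shared promoter sequence it was 2.87% in control and 4.15% in EBSS, and by shared symbol stem 38.1% and 37.1%.

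**Figure D1:**
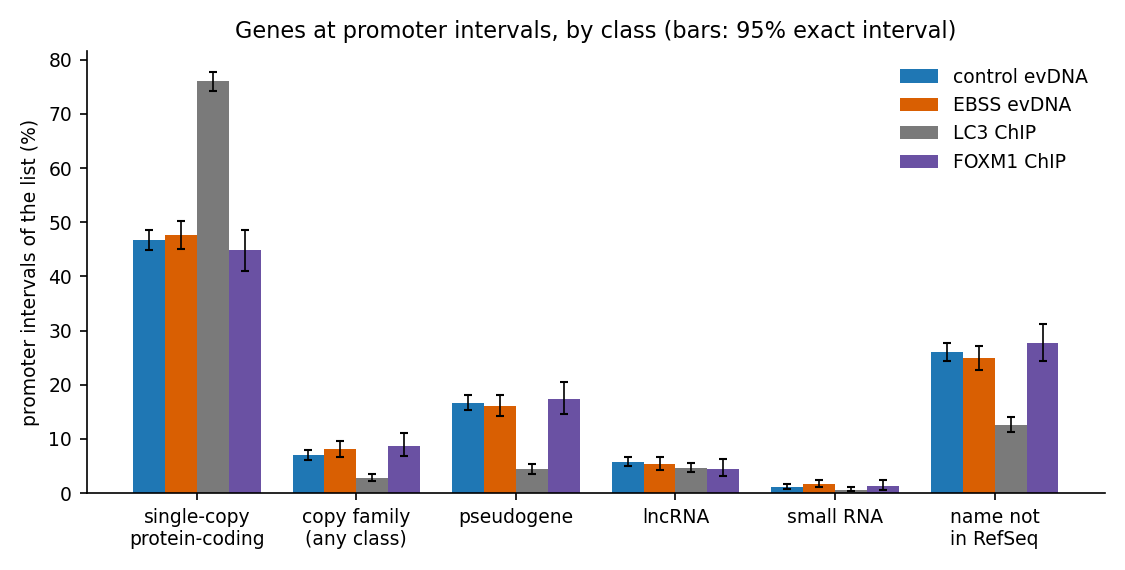
Share of the promoter intervals of each list (%) by class of the named gene, with 95% exact intervals as error bars; copy family members are also counted in their own class. Single-copy protein-coding genes reached 46.7% in control evDNA and 47.6% in EBSS evDNA, and the LC3 bar stands well above these.

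By gene, 1229 of 20056 protein-coding genes (6.13%) had a promoter interval in control and 707 (3.53%) in EBSS, beside 1580 (7.88%) in LC3 and 310 (1.55%) in FOXM1. Genes that mark lung cells, vesicles, the cell cycle and other functions were counted among them. Of 188 genes in 8 lists, 10 (5.32%) had one in control and 7 (3.72%) in EBSS, shares near the 6.13% and 3.53% of all coding genes. The pooled shares hide differences between lists. Of the 10 in control, 5 were genes of other lineages, and of the 7 in EBSS, 3 were FOXM1 and G2/M genes. The lists were chosen with earlier results of these data known, and their counts are a description.

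Of 20 housekeeping genes, control held TFRC (the transferrin receptor, fold 2.89) and EBSS held PGK1. That is 5% in each list, with 6.13% and 3.53% over all coding genes. Of 35 FOXM1 and G2/M genes, control held none. EBSS held 8.57% of them, with 3.53% over all coding genes: FOXM1 itself, BUB1 (a spindle checkpoint kinase, 2.77) and ECT2 (a cytokinesis factor, 2.45). These 3 were the only members of that list with a promoter interval in either evDNA list. The −log10 q was 23.02 for FOXM1 but 0.261 for BUB1 and 0.147 for ECT2. BUB1 lay 34245 bases and ECT2 2211 bases from a RefSeq start, and FOXM1 had no distance. The 8.57% is thus a share of gene names. Of 26 lung and A549 genes, control held CD44 (a hyaluronan receptor, 2.89), or 3.85%, and EBSS held none. Among 32 autophagy and lysosome genes, control held UVRAG (2.75), or 3.125%. EBSS held CTSD, the protease cathepsin D (2.97), and ATP6V0D1, a subunit of the lysosomal proton pump (2.35), or 6.25%. RAB27B (3.28), which acts in vesicle release, was the only one of 25 vesicle genes (4%). IFI16 (3.48), a sensor of DNA, was the only one of 13 sensing genes (7.69%). Both were in control. An LC3 interval of fold 3.79 overlapped the IFI16 interval.

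Genes that mark neurons, muscle and other lineages foreign to lung epithelium were found as well. Of 23 such genes, control held 5 (21.7%, with 6.13% over all coding genes): MYT1L, a neuronal zinc finger factor (3.51); MYOD1, the muscle determination factor (2.93); SNAP25, of synaptic vesicle fusion (2.74); MBP, of myelin (2.63); and RBFOX3, a neuronal splicing factor (2.28). Only MYT1L among them reached q of 0.05 in control, with a −log10 q of 1.55. It was 0.716 for MYOD1 and MBP, 0.679 for SNAP25 and 0.406 for RBFOX3. The control intervals of MYT1L, RBFOX3 and MBP lay 462354, 117878 and 32069 bases from a RefSeq start. MYOD1 and SNAP25 had no distance. The 21.7% is thus a share of gene names, and it includes intervals far from RefSeq starts. EBSS held MYT1L alone, at 5.95, which is 4.35% of the genes with 3.53% over all coding genes. None of 14 histone genes had a promoter interval in either list.

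Many evDNA promoter intervals lay at starts of short or alternative transcripts inside genes rather than at the start RefSeq gives. The interval covered the annotated transcript start itself in 24.5% of cases in control and 23.3% in EBSS, against 35.4% in LC3 and 22.7% in FOXM1. Among coding-gene intervals whose gene has a start in the RefSeq table, 484 of 1083 in control (44.7%, 41.7% to 47.7%) lay within 1 kb of a RefSeq start of the same gene. In EBSS it was 218 of 596 (36.6%, 32.7% to 40.6%), in FOXM1 71 of 266 (26.7%) and in LC3 1137 of 1360 (83.6%, 81.5% to 85.5%). The median distance to that start was 1918 bases in control, 5697 in EBSS and 308 in LC3, and 37.8% of control and 42.8% of EBSS intervals lay over 10 kb away.

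The annotated transcripts were correspondingly short. In control the median annotated transcript spanned 20.5 kb where the interval was within 1 kb of a RefSeq start and 10.4 kb where it was farther, and in EBSS 19.8 and 8.53 kb. Fold did not separate these groups: the median fold was 2.78 near and 2.78 far in control, and 2.79 near and 2.76 far in EBSS. Examples far from the RefSeq start were MYT1L at 462354 bases, CD44 at 66844, BUB1 at 34245 and TFRC at 18455, while the RAB27B interval covered its RefSeq start.

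**Figure D2:**
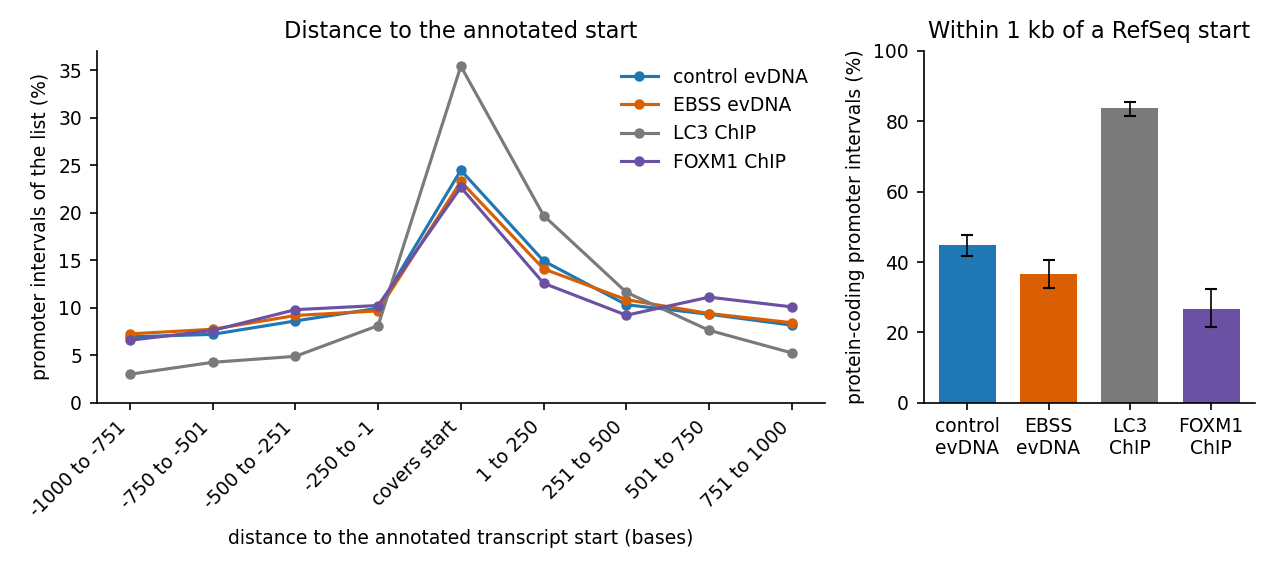
Left, the share of promoter intervals (%) by distance in bases from the annotated transcript start, negative upstream; right, the share of protein-coding promoter intervals (%) within 1 kb of a RefSeq start of the same gene, with 95% exact intervals. The evDNA profiles are flatter than that of LC3, and the right panel shows 44.7% for control and 36.6% for EBSS against 83.6% for LC3.

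Genes with an evDNA promoter interval were long. The median protein-coding gene spanned 24.1 kb, with 16.7% over 100 kb, while those with a promoter interval spanned 52.7 kb in control (33.8% over 100 kb) and 51.6 kb in EBSS (32.1%). Medians in the other lists were 55.3 kb in LC3 and 79.9 kb in FOXM1. Length was greater where the interval was far from the RefSeq start: 62.7 kb against 41.0 kb in control and 67.0 kb against 34.7 kb in EBSS.

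Read against RefSeq promoters alone, evDNA covered few of them, and those it covered were slightly lower in G+C than the rest. Of 22199 windows of 300 bases at coding-gene starts, an interval overlapped 214 (0.964%) in control, 98 (0.441%) in EBSS, 463 (2.09%) in LC3 and 28 (0.126%) in FOXM1. The median G+C content of the windows was 60% in control and 59.7% in EBSS, against 62.3% over all windows and 68.3% in LC3. An observed to expected CG ratio of at least 0.6, a usual mark of CpG islands, was found in 55.1% of the windows in control and 55.1% in EBSS, against 62.2% of all and 85.96% in LC3.

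Across G+C content the evDNA lists and LC3 took different courses. In control, 0.354% of windows under 40% G+C were overlapped, 1.28% of those from 50% to 60% and 0.662% of those at 70% or more. In EBSS the same shares were 0.283%, 0.607% and 0.192%. In LC3 they were 0.142%, 1.30% and 3.52%. The lists differed most in the windows at 70% G+C or more. How G+C content affected the sequencing of each library was not tested.

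**Figure D3:**
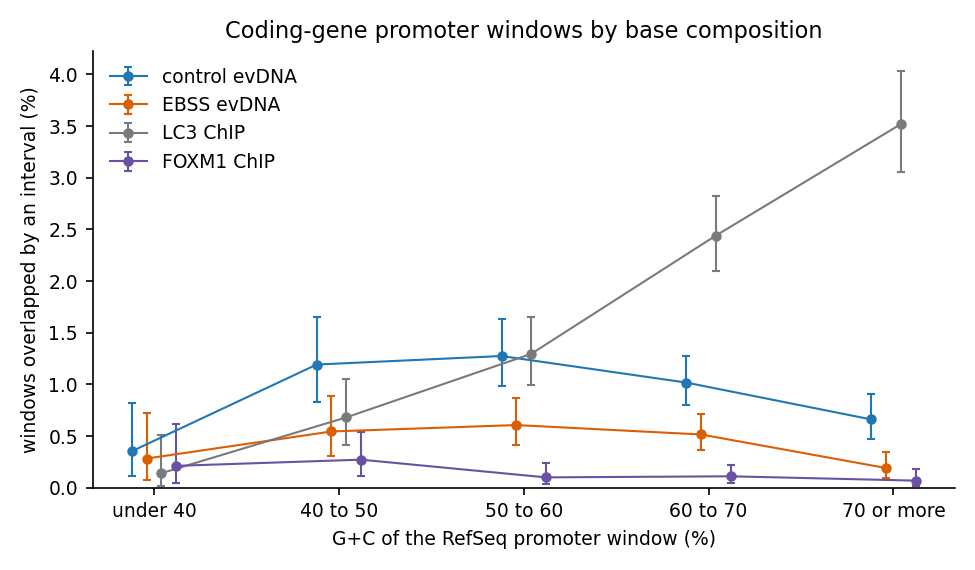
Share of RefSeq coding-gene promoter windows (%) overlapped by an interval of each list, by G+C content of the window (%), with 95% exact intervals as error bars. Both evDNA lines are highest from 50% to 60% G+C (1.28% and 0.607%) and lower at 70% or more, where LC3 reaches 3.52%.

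The forkhead core TAAACA was in 8.41% of the overlapped windows in control and 7.14% in EBSS, against 9.54% of all coding windows. TTTGAA was in 10.7% and 15.3%, against 12.4%, and TATAAA in 9.81% and 9.18%, against 9.47%. Windows that share at least 50% of their 31-base words with another promoter made up 3.74% of those overlapped in control and 7.14% in EBSS, against 1.95% of all.

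A larger share of copy family intervals than of other intervals had a high fold. The median fold of promoter intervals was 2.78 in control (quartiles 2.54 and 3.13) and 2.79 in EBSS (2.48 and 3.14), beside 2.84 and 2.79 for the other intervals of each list. A q of at most 0.05 was reached by 356 promoter intervals in control (13.2%, with 13.3% over all intervals of the list) and by 150 in EBSS (10.4%, with 9.77%). It was reached by 29.8% of copy family intervals and 10.2% of single-copy coding intervals in control, and by 25.6% and 5.67% in EBSS. A fold of 4 or more was found at 37 of 188 copy family intervals in control (19.7%) and 22 of 117 in EBSS (18.8%), but at 29 of 1257 single-copy coding intervals in control (2.31%) and 10 of 688 in EBSS (1.45%). By number, copy families were 37 of the 133 control intervals and 22 of the 64 EBSS intervals with such a fold, and the rest were at other genes and unmatched names. No single-copy coding interval in control and 1 in EBSS reached a fold of 8.

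**Figure D4:**
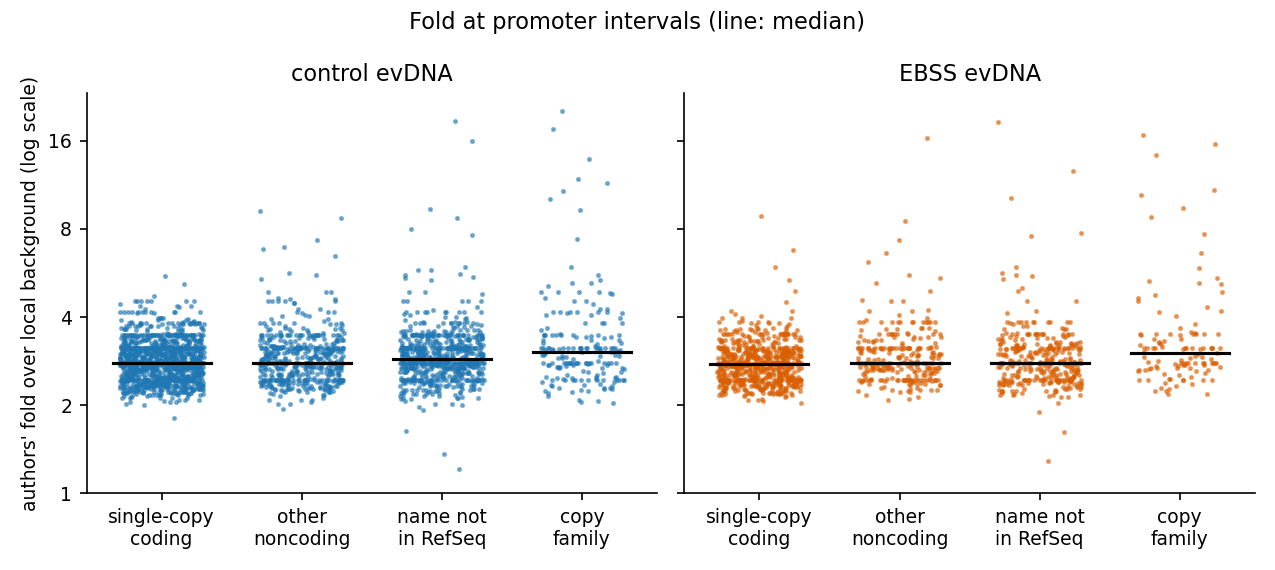
The authors' fold over local background (log scale) of every evDNA promoter interval in control (left) and EBSS (right), by kind of gene, with the median as a line. Medians lie close together, and the points above 8 are at copy families, noncoding genes and unmatched names, with 1 single-copy coding exception in EBSS, PGK1 at 8.84.

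The same copy families led both lists. All 4 USP17L intervals, at a tandem array of deubiquitinase genes on chromosome 4, overlapped between lists and reached q of 0.05 in both. USP17L6P had a fold of 13.9 in control and 14.3 in EBSS, USP17L11 11.5 and 7.69, USP17L17 10.8 and 6.64, and USP17L18 10.1 and 10.5. The 3 GAGE intervals on the X chromosome did likewise, with GAGE2A at 11.8 and 10.9, 241 and 298 bases from its RefSeq start, and GAGE13 at 9.28 and 9.43.

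REXO1L11P, a pseudogene related to an RNA exonuclease, had the highest fold of any copy family interval, 20.2 in control and 16.8 in EBSS. DUX4L26, a pseudogene of the embryonic transcription factor DUX4, stood at 17.5 and 15.7 with 332 and 247 fragments at the summit. TAF11L6 had 7.42 and 4.20, and TAF11L5 was named in EBSS alone, at 8.76, although a control interval overlapped its place. These families recurred in both vesicle libraries at high fold, but which copy the fragments came from cannot be told apart. REXO1L11P, DUX4L26 and TAF11L6 were also overlapped in both immunoprecipitations, at FOXM1 folds of 2.91, 1.496 and 3.58 and LC3 folds of 3.06, 1.41 and 2.26.

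The next families had lower median folds than these. Olfactory receptor genes and pseudogenes had 54 promoter intervals in control and 27 in EBSS, with median folds of 3.00 and 2.79, and 7 and 0 of these passed q of 0.05, which 13.2% and 10.4% of all promoter intervals did. Immunoglobulin and T cell receptor segments had 26 and 20, of which 3 and 0 passed. Keratin-associated protein genes, which encode hair proteins, had 7 and 9, of which 2 and 0 passed.

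Among noncoding genes outside the listed copy families, LINC01596 had the highest control fold, 9.20, beside 6.64 in EBSS. Small RNA genes were left out of those families by rule, and genes outside them can be copied too. The places given here can therefore be uncertain as well. ROCK1P1, a pseudogene of the kinase ROCK1, had 6.85 and 7.33 with 393 and 375 fragments, the deepest summits among the genes named here. RNA5-8SN2, a 5.8S ribosomal RNA gene, had 6.45 and 5.59, RNA5S6, a 5S ribosomal RNA gene, 7.31 and 3.14 at separate intervals, with a control fold of 6.96 at the place of the EBSS interval, and FAM138E, whose promoter window is identical to that of FAM138A in its 31-base words, 5.57 and 6.18. ELOA3B, a pseudogene in RefSeq, had its intervals at separate places: where control had 4.26 EBSS had 3.68, and where EBSS had 8.54 control had 7.15.

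Nuclear copies of mitochondrial genes on chromosome 1 showed how a gene name can hide a shared place. The control interval at chr1:633863-634225 was named MTCO3P12 and had a fold of 8.74, and the EBSS interval at chr1:633787-634221 was named MTATP6P1 and had 16.4. By name each gene is in 1 list, but the intervals overlap. Fragments of mitochondrial DNA could be assigned to such nuclear copies, so this place is uncertain too, and the origin of the fragments was not tested. The control list also held a promoter interval of MT-TF on the mitochondrial chromosome. RF00004, a name that was not matched to RefSeq, had 16.01 and 12.6, and whether its sequence is copied was not examined.

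Single-copy coding genes of highest fold were mostly different in the lists. In control they were MUC3A, a membrane mucin (5.51), DHX32, of a helicase family (5.19), MUC6, a gel-forming mucin (4.70), and MEGF10, an engulfment receptor (4.53). Another 6 had 4.52 each with 12 fragments: ART3 and ST8SIA1 (a ganglioside synthase), CHL1 (neural adhesion), RFESD, STK32A (a kinase) and C1orf87. Of these 10 genes, 4 were also in EBSS: MUC3A (4.04), MUC6 (5.34), CHL1 (2.45) and ST8SIA1 (2.91). The control intervals of ST8SIA1, CHL1, MUC3A and RFESD lay 102561, 53402, 8305 and 6375 bases from a RefSeq start. Those of DHX32, MEGF10, ART3 and C1orf87 lay within 1 kb of one, and MUC6 and STK32A had no distance.

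In EBSS they were PGK1 (8.84), FOXM1 (6.77), MYT1L (5.95), MUC6, ARHGEF5 (4.89), FCGBP, a mucus protein (4.51), ANAPC10, a subunit of the anaphase-promoting complex (4.19), NUTM2D (4.19), LRRC4C, of synapses (4.08), and MUC3A. NUTM2D shares 48.9% of its window's 31-base words with NUTM2B, and ARHGEF5 15.9% with ARHGEF35, so their places are uncertain too. The EBSS intervals of MYT1L, FCGBP, ARHGEF5 and MUC3A lay 462343, 48139, 9693 and 8312 bases from a RefSeq start. Those of PGK1, ANAPC10 and NUTM2D lay within 1 kb of one, and FOXM1, MUC6 and LRRC4C had no distance.

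Among the single-copy genes of highest fold, PGK1 and FOXM1 were the only ones whose evDNA interval was overlapped by intervals of both immunoprecipitations. The PGK1 interval in EBSS, chrX:78103702-78104426, covered the RefSeq start and all of the printed promoter, with 34 fragments over a background of 2.96 and a −log10 q of 19.99. The FOXM1 immunoprecipitation had a fold of 22.6 there and LC3 3.03, and control evDNA had no interval. A peak absent from the control list may have been below its bound of p of 0.005, or among the 270 numbers that its numbering skips. Neither is the same as no DNA.

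The FOXM1 gene itself, on the minus strand at chr12:2857680-2877174, had evDNA promoter intervals in EBSS but not in control. The stronger one, chr12:2873898-2874550, had a fold of 6.77, with 51 fragments over a background of 6.68 and a −log10 q of 23.02. It lay 2624 bases inside the gene from its RefSeq 5′ end, at the start of a shorter annotated transcript. Its background was well above the list's median of 2.33. The weaker one, chr12:2864328-2864776, had 2.10 over a background of 6.60.

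Outside the 1 kb class, EBSS had a further interval in the last part of the gene, chr12:2858597-2859637, with a fold of 6.02 over a background of 10.8 and named for the neighbouring gene ITFG2. There control also had 1, of fold 2.03. In the FOXM1 immunoprecipitation the places of these 2 strong EBSS intervals had folds of 182.4 (ITFG2) and 116 (FOXM1), and in LC3 4.94 and 3.87. The FOXM1 gene thus carried intervals of all 4 lists, and these 2 places of the 1 EBSS library were shared with both immunoprecipitations. At the weaker EBSS interval FOXM1 had a fold of 20.5 and LC3 had no interval. The FOXM1 immunoprecipitation also had intervals where evDNA and LC3 had none. Among them were chr12:2868404-2868924 (10.5) and chr12:2876849-2878290 (16.4), which covers the RefSeq 5′ end of the gene.

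Few other evDNA promoter intervals met an immunoprecipitation interval. For FOXM1 it was 28 in control (1.04%), against 0.772% of the other control intervals, a difference of 0.269 percentage points (95% Newcombe interval −0.0704 to 0.738). In EBSS it was 24 (1.66%) against 0.931%, a difference of 0.728 points (0.159 to 1.54). For LC3 it was 73 in control (2.71%) against 0.715%, a difference of 2.00 points (1.44 to 2.69), and 40 in EBSS (2.77%) against 0.774%, a difference of 1.99 points (1.25 to 2.98). LC3 intervals were themselves at promoters more often, 28.5% of them beside 9.28% of control and 9.39% of EBSS evDNA intervals. Promoter intervals thus had more LC3 intervals to meet, and any overlap beyond that was not tested.

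Most LC3 overlaps of coding genes were at RefSeq starts. In control, 24 of the intervals within 1 kb of a RefSeq start (4.96%) met an LC3 interval and 9 of those farther away (1.502%), and in EBSS 9 (4.13%) and 1 (0.265%). For FOXM1 these counts were 3 and 1 in control and 6 and 2 in EBSS, too few to rank. LC3's own coding-gene promoter intervals lay mostly near RefSeq starts too, with 83.6% within 1 kb where the gene has one.

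A minority of places was shared between the vesicle lists, and the shared share was higher among intervals of high fold and at copied genes. Of the control promoter intervals, 200 (7.43%, 6.47% to 8.49%) were overlapped by an EBSS interval, against 6.37% of other control intervals, a difference of 1.06 points (0.0848 to 2.16). Of the EBSS promoter intervals, 201 (13.9%, 12.2% to 15.8%) were overlapped by a control interval, against 11.96% of others, a difference of 1.94 points (0.167 to 3.89). With promoters taken up to 3 kb the EBSS difference turned, to −0.723 points. In control 190 of the 200, and in EBSS 191 of the 201, had the same gene name on both sides.

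The shared share varied with the kind of gene. It was 3.74% of single-copy coding intervals in control and 6.98% in EBSS, 10.4% and 20.3% of pseudogene intervals, and 24.5% and 38.5% of copy family intervals. By strength, 54.9% of control and 73.4% of EBSS promoter intervals with a fold of 4 or more were shared, against 4.96% and 11.1% of those under 4. By number, most shared intervals still had a fold under 4: 127 of 200 in control and 154 of 201 in EBSS. Copy families held 46 of the 200 and 45 of the 201. Copy family and high fold went together, since 19.7% of copy family intervals in control and 18.8% in EBSS had such a fold of 4 or more. Their parts in the shared share were not separated.

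**Figure D5:**
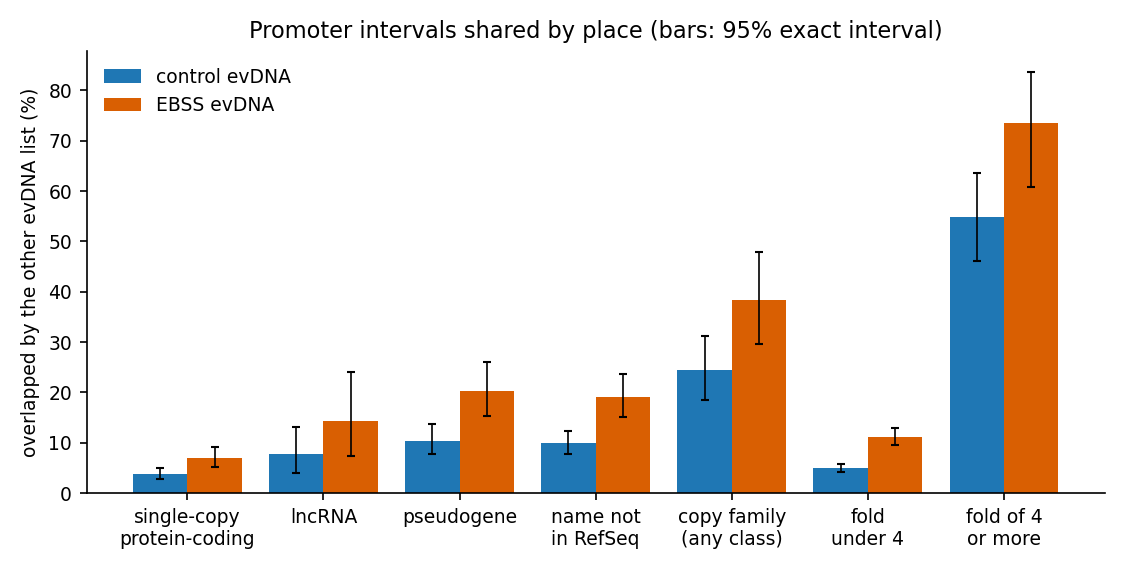
Share of evDNA promoter intervals (%) overlapped by the other evDNA list, by kind of gene and by fold, with 95% exact intervals as error bars. Copy family intervals (24.5% in control, 38.5% in EBSS) stand above single-copy coding ones (3.74%, 6.98%), and those with a fold of 4 or more are highest (54.9%, 73.4%).

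By gene name, 311 genes had a promoter interval in both lists, 2213 in control only and 1080 in EBSS only. In 183 of the 311 the intervals overlapped, and in 128 they lay apart in the same gene. Copy family members were 16.4% (12.5% to 21.0%) of the genes in both lists and 5.71% (4.94% to 6.56%) of those in 1 list. That difference of 10.7 percentage points was 9.68 with families set by promoter sequence and 0.111 with families set by symbol stem. Where intervals overlapped, 32.8% of genes were protein-coding and 22.4% were of copy families, and where they lay apart it was 61.7% and 7.81%.

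A shared name with intervals apart went with gene length. The 60 coding genes with overlapping intervals spanned a median of 40.004 kb and the 79 with intervals apart 112 kb. Of all coding genes, 139 (0.693%) were in both lists, which was 11.3% of those in control and 19.7% of those in EBSS.

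Ranked by the lower of their folds, the leading single-copy coding genes of both lists were MUC6 (4.70 in control, 5.34 in EBSS), NUTM2D (4.13, 4.19) and MUC3A (5.51, 4.04). Then came MRPS30, of the mitochondrial ribosome (3.98, 3.75), GPI, of glycolysis (3.88, 3.68), WDR25 (3.78, 3.51), MYT1L (3.51, 5.95) and RASA4, a Ras GTPase activator (3.83, 3.49). KIAA1217 (3.32, 3.43), PEX2, of peroxisome assembly (4.26, 3.31), LIMS1, a focal adhesion adaptor (3.50, 3.23), and PPFIA1, liprin alpha 1 (3.20, 3.66), completed the 12. In 9 of the 12 the EBSS interval overlapped a control interval, with RASA4, KIAA1217 and LIMS1 as the exceptions. MUC6, RASA4 and PEX2 had no promoter window, so copying was not checked and no distance to a RefSeq start is given. In control, GPI lay 26523 bases from a RefSeq start, LIMS1 70291, PPFIA1 100602, WDR25 150174, MYT1L 462354 and MUC3A 8305. NUTM2D (589), MRPS30 (218) and KIAA1217 (117) lay within 1 kb.

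Only 9 RefSeq windows of coding genes were overlapped in both evDNA lists: 2 of FANK1 and 1 each of GHSR, MBNL1, NTRK2, PIK3R1, SPRN, TAF11L9 and TBC1D3F. At PIK3R1, the control interval chr5:68288347-68288837 had a fold of 3.13 and the EBSS interval chr5:68288314-68288575 one of 2.70, so both covered the last part of the printed sequence. LC3 had an interval of fold 4.17 at another start of PIK3R1, chr5:68215690-68216088. GHSR had folds of 3.23 in control and 2.45 in EBSS, NTRK2, the receptor of the growth factor BDNF, 2.44 and 2.91, and MBNL1, a splicing regulator, 3.41 and 2.79. SPRN, which encodes a prion-like protein, had 3.49 in control, with a further interval at 4.35, and 2.79 in EBSS.

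FANK1, a testis gene, had 2.57 and 2.98 at its own start, and the control interval of DHX32 named above (chr10:125895887-125896271) lay 293 bases upstream of that start, since both genes begin there on opposite strands. TAF11L9, with folds of 4.18 and 4.82 in control and 4.33 and 4.66 in EBSS, and TBC1D3F, with 3.97 and 2.95, are copied genes. No housekeeping or cell cycle gene listed above was in both evDNA lists by name, so their absence from these windows adds nothing further.

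Several intervals in 1 gene were uncommon. In control 2387 gene names had 1 promoter interval, 124 had 2 and 13 had at least 3, and in EBSS it was 1345, 41 and 5. Coding genes with 4 in control included RICTOR, a subunit of the kinase complex mTORC2, and CDH9, a cadherin. PEX2 had 3 in EBSS.

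On chromosomes 5 and 19 the share of promoter intervals lay between that of the other intervals and that of coding genes. Chromosome 5 held 300 of the control promoter intervals (11.2%), 15.5% of the other control intervals and 4.51% of coding genes, and in EBSS 108 (7.51%) and 12.3%. Chromosome 19, rich in genes, held 3.44% of control promoter intervals, 1.01% of the other intervals and 7.24% of coding genes, with 3.34% and 1.55% in EBSS. The number of copies of each chromosome in these cells was not measured here.

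The 1 kb bound cut through a continuous range. In control, LINC01755 at 1000 bases (fold 3.48), RPL22P7 at 1000 (3.39) and RABGEF1 at −1000 (2.93) were the nearest inside, and STC2 at −1001 (2.78), TCF4-AS1 at −1001 (2.60) and EPS8 at −1001 (2.27) the nearest outside. In EBSS, LTN1 at 1000 (3.49), AC019257.7 at −999 (3.04) and ERGIC3 at −999 (2.53) were inside, and AC069439.2 at 1003 (3.14), MIR4477A at −1003 (2.69) and RNA5SP377 at −1004 (3.13) outside.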

How the data were processed

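DNA was sequenced from A549 extracellular vesicles and from FOXM1 and LC3 immunoprecipitates, 1 library per group, grouped by the antibody and treatment labels. The submitters' processing notes list fastp 0.20.0 and FastQC 0.11.8 for reads, BWA, the peak caller MACS3 3.0.0a6, the annotator ChIPseeker and the build hg38. Per the file headers, each list holds peaks called per library and annotated to the nearest transcript. For each peak the deposited values are the authors' fold over local background, a linear ratio, with its −log10 p-value and −log10 q-value. The headings of the p and q columns are damaged in the EBSS list, and the columns were identified by position and value. A score deposited by the authors for each peak was not used. The sources used here do not say which control the peak caller was given, and the input library was not analysed here. Numbering of peaks skips 270 numbers in control and 243 in EBSS.

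Entries with the same chromosome, start and end were merged to the strongest. Summit fragments and background were recovered from fold and Poisson p (all intervals within 0.01, tested on simulated data). Intervals overlapped when they shared at least 1 bp. Gene names were matched to RefSeq on GRCh38.p14 (73.9% of control and 75.1% of EBSS promoter intervals). Copy families were 49 lists of symbols, which can miss or over-include members. Names of the small RNA list were not counted as copy family. Windows ran from 250 bases before to 50 after each RefSeq start, without chromosome 8. Distances used these starts and the outer 5′ end of the gene. Shares have exact Clopper-Pearson and differences Newcombe 95% intervals. Read totals are unknown. Python 3.11.15, pandas 2.3.3, NumPy 2.4.6, SciPy 1.17.1 and Matplotlib 3.10.9 were used.

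Genes were named by fold at their strongest promoter interval: in each evDNA list the 10 single-copy coding, 8 copy family and 5 noncoding genes of highest fold, the 5 single-copy coding genes of highest fold found in that list only, the 12 single-copy coding genes of both lists with the highest lower fold, the 5 of highest fold overlapping FOXM1 or LC3 promoter intervals, up to 4 members of each gene list, and FOXM1 and PGK1. RBFOX3, the genes of the 9 shared windows and the genes with several intervals were added after their values were seen. The members, lists and rules were chosen with earlier results of these data known.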

Additional observations from a re-analysis of the deposited data

How the results depend on the processing

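Of 113 recomputed values of 23 results, 69 stayed within the counting interval or, for counts, within 1.5 times. Merging and intervals of high background moved none. With only intervals of q at most 0.05, the control and EBSS lists had 145 and 48 coding genes with a promoter interval, noncoding shares of 41.6% and 52.8%, and copy family shares of 15.7% and 20%. In that setting the EBSS promoter share was 9.97%, the control difference of median fold was 0, and 67 genes were in both lists (19.5% of control, 46.5% of EBSS). The differences from other intervals were then 4.79 and 6.60 points for the other evDNA list, 1.67 and 4.39 for FOXM1, and 6.53 for LC3 in EBSS, and genes in both lists exceeded the rest by 27.04 points in copy family and 22.99 in noncoding share. With promoters up to 3 kb, the promoter shares were 17.8% and 19.1%, coding genes 2215 and 1390, copy family shares 5.82% and 6.66%, the control difference of median fold −0.0689, and genes in both lists 716 (15.8%, 26.3%), with differences of 5.98 points in copy family and −1.04 in noncoding share. There the EBSS difference in overlap with control intervals also turned, to −0.723 points. The control difference in the share with q of at most 0.05, −0.0549 points, was 0.435 with equal list lengths and 0.235 without merging, with 0 inside each interval. With lists of equal length, control had 611 coding genes, a noncoding share of 35.5%, a copy family share of 8.42% and a median fold difference of 0, and 16.8% of control and 16.1% of EBSS genes were in both. Copy families set by symbol stem gave 38.1% and 37.1% and a difference of only 0.111 points between genes in both lists and in 1; set by promoter sequence they were 2.87% and 4.15%. Counting genes by overlapping intervals gave 183 in both lists, and requiring 50% overlap gave 1.42 points for LC3 in control. How far the copy families lead therefore depends on how a family is defined. No paired analysis was possible because each group has 1 library. Most intervals rest on about 9 fragments, so a gene missing from a list may lie just under its bound. The input library was not analysed here.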
